A study of Mus musculus with 48 samples.

Results

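The culture described here was a mouse cortical neuron culture given clofibric acid before and after exposure to NMDA, measured on 1 of the 48 Illumina MouseWG-6 arrays of the series. It was selected on the intensity values themselves, because its array had the lowest median correlation with the other arrays, 0.906 against 0.927 to 0.966 for the other 47. All differences of this array are therefore given as a description, without a test, and with 1 array of the compound there is no replicate spread on its side. The cultures came from CD-1 mice, an outbred stock, and were kept for 7 days. Treatment ran through a pre-incubation of 1 h, NMDA in hypotonic salt solution for a further 1 h, and 16 h of recovery in fresh medium with the compound. Clofibric acid was dissolved in ethanol, and its labels give the mechanism as enzyme inhibitor, the protection ratio as 1.15 and the class as not used. The 10 controls, with a ratio of 1.00, were 5 mock cultures in water and 5 vehicle cultures in DMSO. No control in ethanol is labelled, no dose is stated, and every culture received NMDA. Whether the controls were separate cultures is not stated either, so their spread may be technical.

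Cortical cultures of this kind hold neurons together with astrocytes, precursor cells of the oligodendrocyte lineage and some microglia, the resident macrophages of the brain. NMDA receptors are glutamate-gated channels whose overstimulation lets calcium into neurons and can kill them. Clofibric acid is the active form of the lipid-lowering drug clofibrate and is best known as an agonist of PPARalpha, a nuclear receptor that switches on genes of fatty acid oxidation in rodent liver. Neuronal genes were detected on the clofibric acid array, as the label of the cells requires: the nuclear marker Rbfox3 had a normalized log2 intensity of 9.95, against 7.75 to 10.12 on the controls.

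The clofibric acid array was close to the others in brightness. Its median intensity was 66.1, against 62.4 to 65.7 on the other 5 arrays of its chip and 40.7 to 80.1 on the controls. Detection p was under 0.01 for 30.4% of probes on it, against 29.7% to 32.5% on the other arrays of the chip. Its correlation with the controls was 0.886 to 0.925, while the controls correlated with each other at 0.924 to 0.990. The other chip 2 arrays, which held mock control replicate 5, vehicle control replicate 5, indomethacin, MitoPBN and propranolol, correlated with it at 0.906 to 0.928. Vehicle control replicate 1 stood apart from the other controls in neuronal genes, and results that rest on it are given with and without it.

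The promoter windows of 4 genes described below are printed here because each holds a textbook motif of its gene group. They are the 250 bases before the start site in RefSeq, build GRCm38.p6, with the motif in capitals. Hspa5, the main chaperone of the endoplasmic reticulum (chr2:34771840-34772089, plus strand), holds the endoplasmic reticulum stress element, CCAAT and CCACG with 9 bases between them, from 65 bases before the start. C1qc, a chain of complement C1q made by microglia (chr4:136892915-136893164, minus strand), holds the PU.1 site GAGGAAGT on the opposite strand from 195 bases before it. Vldlr, a lipoprotein receptor (chr19:27216770-27217019, plus strand), holds the amino acid response element TGATGNAA on the opposite strand from 200 bases before it. Ciart, a repressor in the circadian clock (chr3:95882229-95882478, minus strand), holds 3 E-boxes CACGTG, from 116, 58 and 44 bases before it.
Hspa5: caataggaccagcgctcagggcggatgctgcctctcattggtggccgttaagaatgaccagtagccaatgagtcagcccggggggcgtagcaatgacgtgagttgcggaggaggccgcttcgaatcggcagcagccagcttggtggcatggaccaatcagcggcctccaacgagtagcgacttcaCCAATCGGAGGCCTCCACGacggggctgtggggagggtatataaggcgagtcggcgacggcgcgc
C1qc: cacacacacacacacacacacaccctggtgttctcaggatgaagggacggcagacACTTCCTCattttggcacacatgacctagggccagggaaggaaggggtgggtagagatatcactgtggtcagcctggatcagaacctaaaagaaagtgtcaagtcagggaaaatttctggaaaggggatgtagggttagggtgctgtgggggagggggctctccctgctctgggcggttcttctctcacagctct
Vldlr: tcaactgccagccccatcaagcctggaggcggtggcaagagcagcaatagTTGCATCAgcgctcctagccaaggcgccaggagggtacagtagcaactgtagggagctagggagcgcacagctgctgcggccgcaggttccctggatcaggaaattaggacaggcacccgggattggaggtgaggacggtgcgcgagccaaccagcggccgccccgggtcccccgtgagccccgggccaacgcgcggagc
Ciart: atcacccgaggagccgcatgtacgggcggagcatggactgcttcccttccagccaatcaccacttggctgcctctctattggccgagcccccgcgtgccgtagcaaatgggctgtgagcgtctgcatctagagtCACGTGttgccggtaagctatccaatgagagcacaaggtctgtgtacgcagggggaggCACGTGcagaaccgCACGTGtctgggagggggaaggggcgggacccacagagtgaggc

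In all, 6 motifs were searched on both strands of the RefSeq windows, which run from 250 bases before to 50 bases after each start, and each was chosen after expression values had been seen. The stress element was present in 0.119% of all 32851 windows and in 7 of 16 windows of the endoplasmic reticulum chaperone genes, among them Calr, Hsp90b1 and Pdia6. The amino acid response element was present in 3.97% of all windows and in 8 of 23 windows of the integrated stress response genes, among them Trib3, Asns and Atf3. The PPAR response element, AGGTCA repeated with 1 base between the copies, was present in 0.0396% of all windows and in 0 of 26 windows of the PPARalpha target and fatty acid oxidation genes. The PU.1 site was present in 3.20% of all windows and in 2 of 12 windows of the microglia markers, those of C1qc and Ctss. The SOX core ACAAAG was present in 18.7% of all windows and in 4 of 11 windows of the oligodendrocyte lineage markers, those of Cnp, Mag and Mobp. The E-box was present in 7.15% of all windows and in 6 of 22 windows of the clock genes, those of Ciart, Per1, Cry1, Tef and Bhlhe41. Cry1 and Bhlhe41 were not measured, and Tef did not reach the fold. A match is a run of letters only, and no binding was measured.

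Of 9869 genes measured, 665 (6.74%) were higher in the clofibric acid culture and 763 (7.73%) were lower. A gene was counted when it lay at least 1 log2 unit, or 2-fold, from the mean of the controls and outside all 10 of them. The shares of 6.74% and 7.73% are the background for the count of each list below. With median scaling of the arrays in place of quantile normalization the counts were 331 higher and 1366 lower. A difference of at least 4-fold was found for 88 of the higher and 100 of the lower genes. Of the higher genes 477 had their highest level of all 48 arrays in this culture, and of the lower genes 584 had their lowest. Over all 9869 genes, 985 (9.98%) had their highest level here and 1640 (16.6%) their lowest. The counted genes already lay outside the 10 controls by the rule. Of the lower genes 337 were not well above background on the clofibric acid array. With no minimum fold, 2067 genes (20.9%) lay above all 10 controls and 3170 (32.1%) below them. The median difference over all genes was -0.10 on the log2 scale. When each control was set against the other 9 in the same way, 13 to 795 genes were counted, the highest number being that of vehicle control replicate 1. Among the 37 other compound arrays the count was 13 to 1599. Nimodipine, a calcium channel blocker, had more such genes than clofibric acid, 786 higher and 813 lower, so that clofibric acid was the most divergent array by correlation but not by this count.

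**Figure D1:**
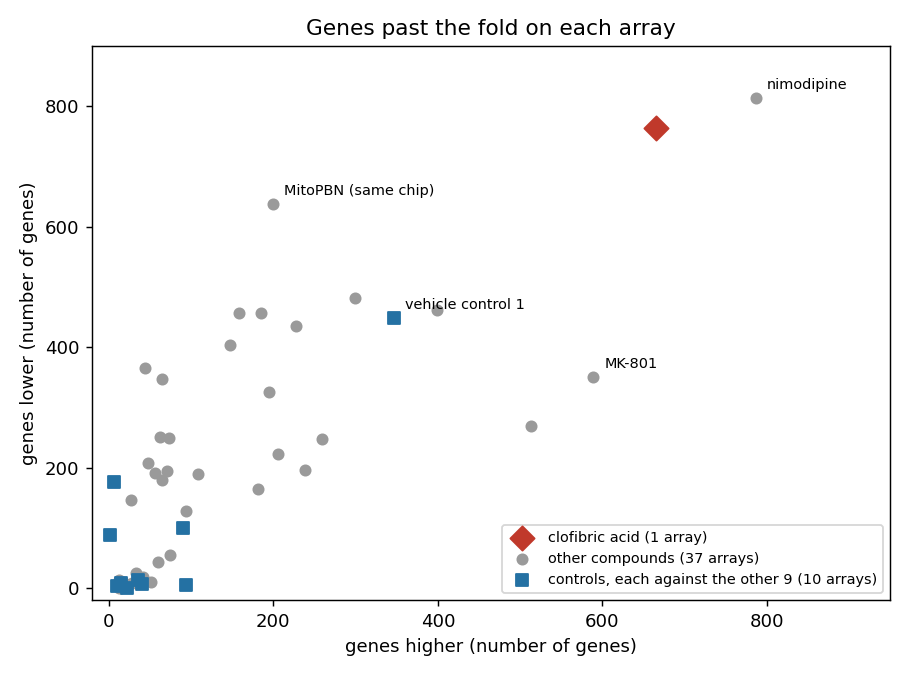
Number of genes at least 1 log2 unit above (x axis) and below (y axis) the mean of the controls and outside their range, for the clofibric acid array (red diamond), 37 other compound arrays (grey) and the 10 controls, each against the other 9 (blue squares). Clofibric acid lies at 665 higher and 763 lower genes, next to nimodipine at 786 and 813.

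Most of these genes, already chosen for lying outside the controls, also lay outside the arrays of the same chip and of the same solvent. Of the 665 higher genes 632 also lay above the 3 other compound arrays of chip 2, and of the 763 lower genes 683 lay below them; the 2 controls of that chip are part of the counting rule. Of the same genes 526 and 635 lay beyond all 8 arrays of other compounds dissolved in ethanol. The same counts over all 9869 genes are not given here, so chip and solvent were not tested by these numbers. A test without the clofibric acid array found 0 of 17815 probes different between the 2 controls of chip 2 and the 8 other controls (limma, Benjamini-Hochberg), with 484 probes at an unadjusted p under 0.05 and a smallest adjusted p of 0.898. The 8 other ethanol compounds differed from the 10 controls at 1323 probes in limma, 593 higher (3.33%) and 730 lower (4.10%). These 8 arrays each carry a different compound, so effects of the compounds and of ethanol are mixed in this count. The arrays also share chips, and the count was 604 with chip as a block and 6938 with median scaling. It ran between 0 and 3269 when single arrays were left out. The count was 0 without nimodipine, without mifepristone, and without mock control replicate 1 or 4. The effects of ethanol and of clofibric acid on this culture cannot be told apart.

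Microglial transcripts were much lower in the clofibric acid culture. Of 15 microglia markers listed 8 were measured, and 7 of these were lower, 0 higher, with a median log2 difference of -2.78 against -0.10 over all genes. The control arrays, each against the other 9, had medians of -1.30 to 0.71 for this list, and the other compounds -1.24 to 0.80. Cx3cr1, the receptor through which microglia sense the neuronal chemokine fractalkine, had a log2 intensity of 5.59, not well above background, in the clofibric acid culture, against 8.92, 9.90 and 10.39 (lowest, median and highest) on the controls. It was detected on all 10 controls and was at least 17.7-fold lower with clofibric acid. The complement genes C1qa, C1qb and C1qc, which mark synapses for removal, were at 7.29, 7.09 and 7.87 with clofibric acid. Their lowest control values were 9.0, 8.87 and 9.61, so the groups did not overlap, and the differences were -2.86, -2.94 and -2.91. Trem2, a lipid receptor of microglia, was at 7.41 with clofibric acid, against 8.69, 10.14 and 10.80 on the controls. Aif1, a calcium-binding protein used to stain microglia, was not well above background and at least 5.27-fold lower. Tyrobp, the signalling partner of Trem2, was 1.92 log2 units lower but lay only just under the lowest control, at 7.07 against 7.22. Ctss, a lysosomal protease, was at 6.14, inside the control range of 5.43 to 8.48.

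Chemokine and receptor genes of microglia and macrophages were among the largest differences of the whole array. Ccl4, a chemokine, was not well above background at 5.32 with clofibric acid, against 9.22, 10.19 and 10.71 on the controls, and was at least 22.1-fold lower. On its second probe, too, the clofibric acid array was not well above background. Ccl3, a related chemokine, was detected at 5.83, against 8.83, 9.87 and 10.37 on the controls, a difference of -3.93. Fcrls, an Fc receptor-like gene of mouse microglia, differed by -3.50. Klhl6 and Vav1, which act in blood cell signalling, were at least 6.31-fold and 4.79-fold lower. P2rx4, an ATP-gated channel, was at least 4.37-fold lower. A longer list of microglia and macrophage genes was made after the values had been seen, partly from these genes, and so supports nothing by itself. Of its 44 measured members 32 were lower and 0 higher (median -2.08, or -1.53 with undetected genes at their bound). Lyz2, the lysozyme of macrophages, was at 9.15 with clofibric acid, against 10.90, 11.45 and 11.84 on the controls. Spi1, the gene of PU.1, the transcription factor on which microglia depend, was at 6.01 and inside the control range of 5.89 to 6.85, as were Tlr2, Cd83 and Siglech. Lesser differences in the same direction occurred on other arrays: the microglia marker median was -1.24 in the MitoPBN culture on the same chip and -1.30 on vehicle control replicate 1. The other MitoPBN array, on another chip, had a median of 0.09, and the Z-VAD-FMK arrays had -1.19 and -0.61.

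Genes of the oligodendrocyte lineage were lower as well, and the lineage factors Sox10 and Olig2 were not well above background. Of 14 markers listed 12 were measured, with 9 lower, 0 higher and a median of -2.34, or -2.11 with undetected genes at their bound. The controls had medians of -0.49 to 0.47 and the other compounds -0.99 to 0.62. Sox10, the transcription factor that specifies the lineage, was at 5.36 with clofibric acid, against 9.42, 9.84 and 10.32 on the controls. It was undetected with clofibric acid, detected on all 10 controls and at least 17.9-fold lower. Olig2, a second specifying factor, was at 4.65, against 8.62, 9.09 and 9.43 on the controls, and was at least 10.4-fold lower. Its second probe was not well above background on the clofibric acid array either. Pdgfra, the growth factor receptor of the precursor cells, was detected at 5.70, against 9.25, 9.61 and 10.06 on the controls, a difference of -3.90. Gpr17, a receptor of cells about to differentiate, differed by -3.81. Genes of myelin differed less: Mag by -2.51, Cldn11 by -2.18 and Mbp by -1.80. Olig1 was still bright at 10.59, against a lowest control value of 12.27. Cspg4, the NG2 proteoglycan carried by precursors and pericytes, was at 6.62 and inside the control range of 6.35 to 7.32.

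Of 20 measured genes in a further lineage list, also made after the values had been seen, 11 were lower and 1 was higher (median -1.23, or -0.42 with undetected genes at their bound). Myt1, a zinc finger factor of neural precursors, was not well above background at 5.49, against 8.56, 8.79 and 9.23 on the controls, and was at least 8.93-fold lower. Evi2a and Bmp4 were at least 6.14-fold and 4.13-fold lower. Among the controls Evi2a was lowest on vehicle control replicate 1, at 7.25, as were the microglial genes Fcrls (8.69) and Klhl6 (7.52). Sox10 was not low on that control (10.2), so the place of Evi2a in this list is uncertain. Bcas1, a gene of newly forming oligodendrocytes, was at 9.06 with clofibric acid, against 11.01 to 12.19 on the controls. Miat, a long non-coding RNA outside these lists, was undetected and at least 13.1-fold lower. In RNA from whole cultures, fewer cells of a type and less RNA per cell cannot be told apart.

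**Figure D2:**
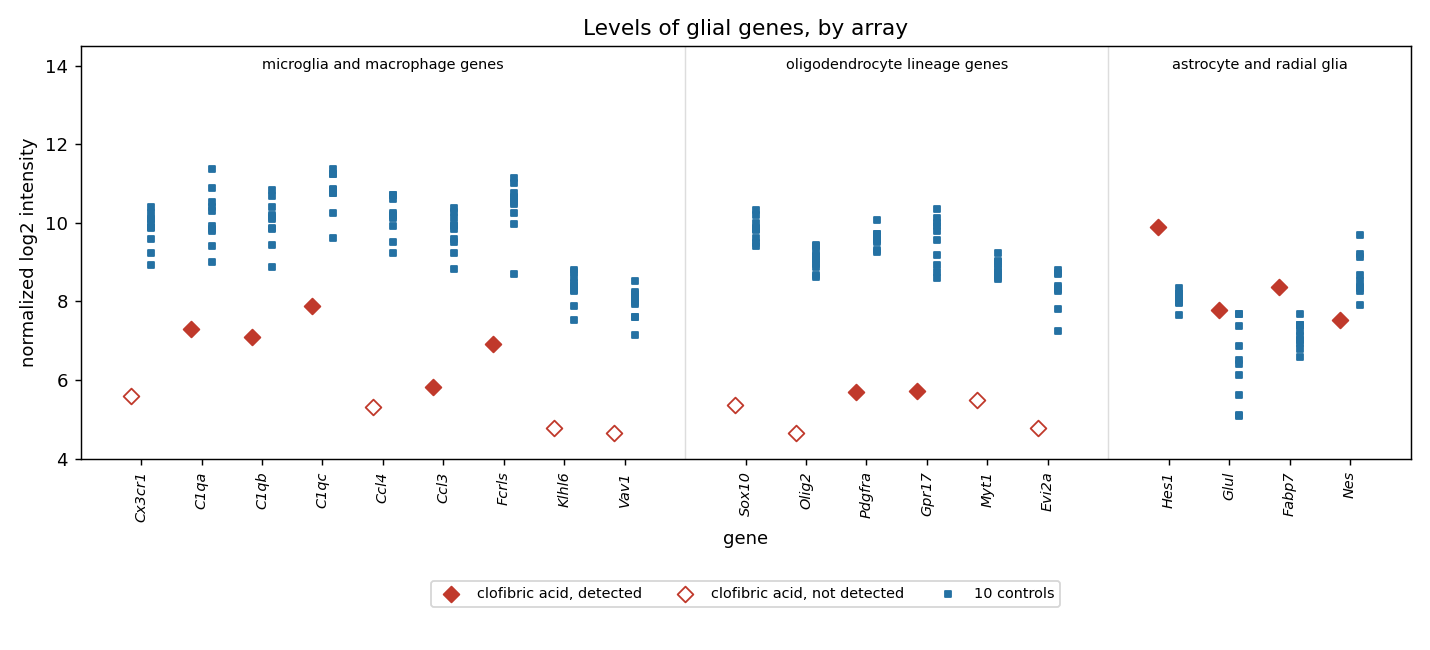
Normalized log2 intensity (y axis) of glial genes (x axis) in the clofibric acid culture (red diamonds, open where not detected) and the 10 controls (blue squares). For genes listed under microglia and oligodendrocyte lineage the diamond lies under all 10 controls, as at 5.59 for Cx3cr1 and 5.36 for Sox10. Hes1 and Fabp7 lie above the controls, and Glul barely so.

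Astrocyte genes did not share these low levels. Of 17 astrocyte and radial glia markers 16 were measured, 6 higher and 1 lower, with a median of 0.53. This was above the controls (-0.23 to 0.26) and was the highest of all 38 compound arrays. With median scaling 1 was higher and 1 lower, and the median was 0.35. Hes1, a target of Notch signalling, was at 9.89 with clofibric acid, against 7.65, 8.09 and 8.34 on the controls. Gfap, the intermediate filament of astrocytes, was at 13.11, against 11.70, 12.14 and 12.69 on the controls. The glutamate transporter Slc1a2 was 1.04 log2 units higher. Glul, glutamine synthetase, was 1.33 above the control mean but barely above the highest control, at 7.77 against 5.09 to 7.67. It was detected on 8 controls, and the other ethanol compounds reached 7.81. Nes, a filament of neural progenitors, was the lower member, at 7.52 against 7.90, 8.44 and 9.68 on the controls. Of 12 fibroblast and meningeal markers 5 were lower and 1 was higher (median -0.83, controls -0.42 to 0.69); Col5a1 and Fn1 differed by -1.25 and -1.15. Endothelial, motile cilia and choroid plexus lists had 0 members counted, with medians of -0.26, -0.32 and 0.03, all inside the controls. None of the 8 listed erythroid genes was measured.

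Neuronal and synaptic genes were higher, but how many were counted depended on vehicle control replicate 1 and on the scaling. Of 17 neuron markers 5 were higher and 0 lower, with a median of 0.97; without that control 10 were higher and the median was 1.11. Of 18 synapse genes 6 were higher and 0 lower, or 10 without it, with a median of 1.06. The medians of that control against the other 9 were 1.17 and 1.05, while the other 9 controls reached at most 0.24 and 0.17. With median scaling only 1 neuron marker and 2 synapse genes were higher, with medians of 0.74 and 0.82. Against the 8 other ethanol compounds the neuron median was 0.26. Gap43, a protein of growing axons, was at 11.98 with clofibric acid, against 8.98, 10.08 and 10.89 on the controls. Rab3a, which directs synaptic vesicles to release, was at 9.10, against 6.19, 6.72 and 7.41 on the controls. Both lay clear of all 10 controls. Sncb, beta-synuclein of nerve terminals, was at 9.25, against 5.73, 6.05 and 8.23 on the controls, where 8.23 is vehicle control replicate 1. The arrays of the 8 other ethanol compounds ranged from 6.55 to 9.63 for Sncb, so the clofibric acid value lay among them. Syp, a vesicle membrane protein, lay barely above that control, at 10.50 against 10.21. The neuronal list ranked 30th and the synaptic list 33rd from the lowest of 38 compound arrays, so other compounds had higher medians.

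Markers of neuron subtypes lay on both sides of the controls. Reln, made by Cajal-Retzius cells and some interneurons, was at 9.44 with clofibric acid, against 6.47, 7.03 and 7.95 on the controls. Calb2, calretinin, and Dlx2, a factor of interneuron precursors, were lower, at 8.11 and 9.26 against lowest control values of 9.24 and 10.17. Of 9 inhibitory markers 3 were higher and 3 lower (median 0.12), and of 9 excitatory markers 1 was higher, Slc17a6, and 1 lower, Bcl11b (median 0.32). The excitatory shares, 11.1% each way, were near the 6.74% and 7.73% over all genes. Of 11 glutamate receptor genes 3 were higher (27.3%) and 0 lower. Grin2a, an NMDA receptor subunit, was undetected on the controls and at least 1.48-fold higher. Of 13 channel genes 4 were higher, among them the sodium channel subunits Scn2a and Scn2b, detected on 3 and 7 controls, and 1 was lower, the potassium channel Kcnc1 (-1.63). The medians of these 4 lists lay inside the controls, but vehicle control replicate 1 decided this for 3 of them. Without it the excitatory, glutamate receptor and channel medians were 0.42, 0.41 and 0.51, above the highest control medians of 0.21, 0.35 and 0.29. The higher genes then numbered 2 for the excitatory list and 5 for the channel list.

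Stress response genes were higher in part. Of 19 measured genes of the integrated stress response, the programme that follows phosphorylation of eIF2alpha, 5 were higher and 0 lower (median 0.53, controls -0.31 to 0.52). With median scaling 2 were higher and the median was 0.22. The list ranked 32nd from the lowest of 38 compound arrays, with minocycline at 1.63 and MitoPBN, on the same chip, at 1.02. Atf4, its central transcription factor, was at 10.64 with clofibric acid, against 8.24, 9.0 and 10.12 on the controls. Trib3, an Atf4 target, was at 8.78, against 5.91, 6.94 and 8.42 on the controls. Ddit4, an inhibitor of mTORC1, and Ddit3, the factor CHOP, were 1.64 and 1.13 log2 units higher. Vldlr was 1.38 higher by its brightest probe, and its other probes differed by -0.13 to 0.39. The amino acid synthesis members Asns and Psat1 differed by 0.72 and 0.03 and were not counted.

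Of 14 endoplasmic reticulum chaperone genes 3 were higher (21.4%, against 6.74% over all genes) and 0 lower, with a median of 0.12 inside the controls. Herpud1, which helps clear misfolded proteins from the organelle, was at 9.79 with clofibric acid, against 6.97, 7.18 and 7.86 on the controls. Hspa5 was at 8.87, against 6.0, 7.32 and 7.72 on the controls. Dnajb9, a cochaperone of Hspa5, was at 8.01, against 4.76, 6.79 and 7.47 on the controls, 7 of which detected it. Hsp90b1, Pdia6, Canx and Creld2, whose windows hold the same stress element as Hspa5, differed by 0.63, 0.64, 0.03 and -0.12 and were not counted. Of 9 heat shock genes 2 were higher, Bag3 at 10.83 and Hsph1 at 11.69, against highest control values of 9.63 and 10.80. That list's median of 0.48 was the highest of the 38 compound arrays and above the controls.

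A minority of early response and inflammatory genes was higher. Of 11 immediate early genes 3 were higher and 0 lower (median 0.44, controls -0.12 to 0.26). With median scaling 1 was higher and the median was 0.19. Egr1, a factor induced by activity and growth signals, was at 11.23 with clofibric acid, against 8.41, 9.52 and 9.68 on the controls. Fos and Junb, partners in AP-1, were 1.22 and 1.29 higher, while Jun and Fosl2 differed by 0.09 and 0.00. Of 15 inflammatory genes 5 were higher (33.3%) and 2 lower (13.3%), against 6.74% and 7.73% over all genes (median 0.08, inside the controls). Nfkbia, the inhibitor that holds NF-kB in the cytoplasm, was at 8.19, against 4.96, 5.93 and 6.38 on the controls. Tnfaip3, an inhibitor further up the same pathway, was at 8.24, against 5.36, 6.39 and 6.73 on the controls. Lcn2, an iron-carrier binding protein of reactive glia, was 2.08 log2 units lower. Irf1, an interferon response factor, was at 9.60, against 7.20, 7.55 and 7.87 on the controls, and was the single higher gene of 17 interferon-stimulated genes, 6 of which were lower (median -0.37). In a list of 22 early response and feedback genes made after the values had been seen, 5 were higher and 4 lower; Gadd45b and Klf4, detected on 3 and 6 controls, were 2.71 and 2.56 higher, and Id1 was 1.68 lower.

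Genes of the circadian clock stood out among the higher genes, and their list was made for that reason. Its count and median are therefore a description and support nothing by themselves. Of 14 measured 8 were higher and 0 lower, with a median of 1.05, against -0.16 to 0.30 on the controls and -0.13 to 0.39 for the other compounds. With median scaling 5 were higher and the median was 0.77. Ciart was at 8.15 with clofibric acid, against 4.96, 5.15 and 6.18 on the controls, 3 of which detected it. Rorb, a nuclear receptor of the clock, was at 9.74, against 6.70, 7.07 and 7.35 on the controls; its second probe differed by 0.74. Bhlhe40, Rora, Arntl and Per2 were 1.89, 1.69, 1.49 and 1.23 higher. Nr1d1 differed by -0.08 at its brightest probe but by 3.09 and 2.52 at its other probes, and its direction is unresolved. Dbp and Per3 differed by -0.33 and -0.38. The hour of RNA extraction is not given in the sources used here.

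**Figure D3:**
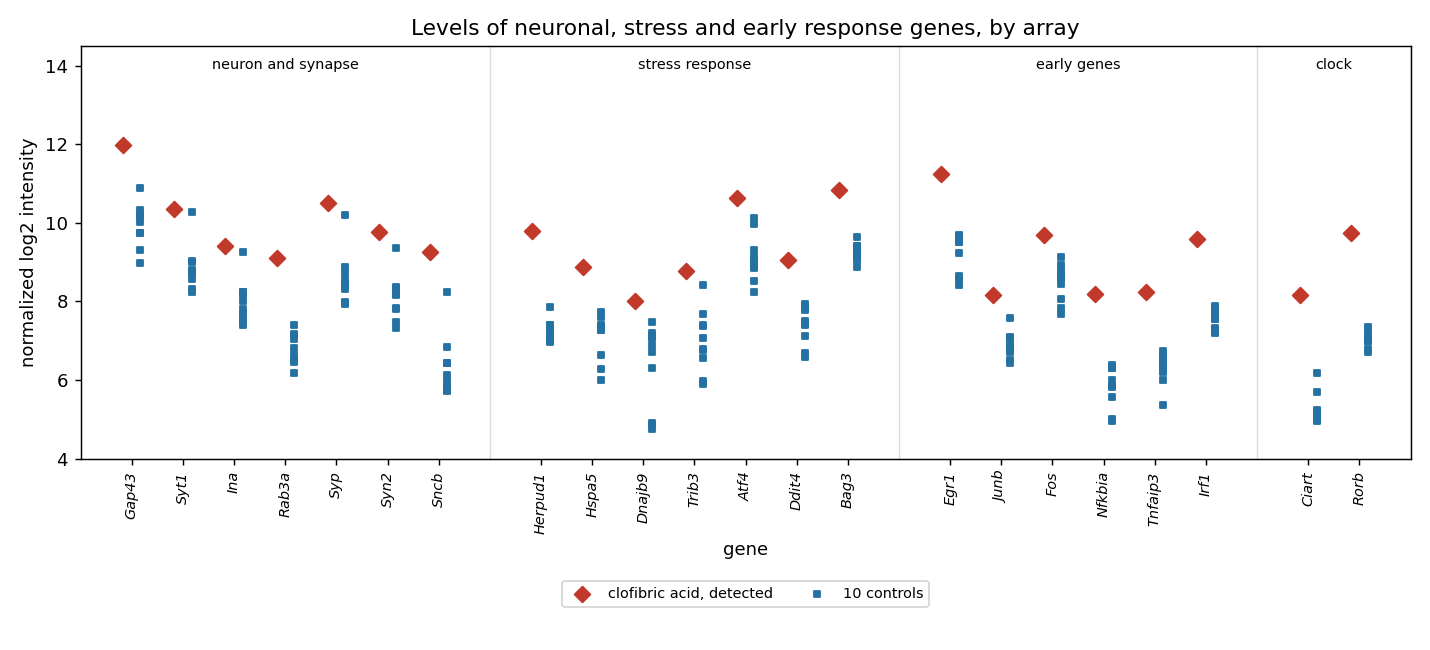
Normalized log2 intensity (y axis) of neuronal, stress response, early response and clock genes (x axis) in the clofibric acid culture (red diamonds) and the 10 controls (blue squares). Every diamond lies above the 10 controls, by a wide margin for Rab3a and Irf1 and barely for Syt1, where vehicle control replicate 1 reached 10.27.

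PPARalpha is the known receptor of clofibric acid. Its target and fatty acid oxidation genes were counted higher in 4.55% and lower in 13.6%, against 6.74% and 7.73% over all genes. Of 35 PPARalpha target and fatty acid oxidation genes 22 were measured, 1 higher and 3 lower, with a median of -0.31, or -0.18 with undetected genes at their bound, against -0.10 over all genes and -0.15 to 0.17 on the controls. MK-801, nimodipine, 4-PPBP and ifenprodil had lower medians for this list, at -0.57, -0.48, -0.45 and -0.34. Pdk4, a kinase that turns cells from glucose to fat as fuel, was at 8.55 with clofibric acid, against 6.60, 7.13 and 7.33 on the controls. Angptl4, another PPAR target, was 0.97 higher and was detected on 4 of 10 controls. Plin2, a coat protein of lipid droplets, was lower at 8.80, against 8.90, 10.02 and 10.44 on the controls. Lpl, lipoprotein lipase, was 1.26 lower, and Acads, a mitochondrial dehydrogenase, was undetected and at least 1.36-fold lower. Cpt1a, Ppara, Cyp4a10 and Cyp4a14 did not pass the detection filter. Of 14 cholesterol synthesis genes 3 were higher and 1 lower (median 0.20).

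Glucose use and growth genes were mixed. Over all genes 6.74% were higher and 7.73% lower, and counts of 1 or 2 members below are not read as results. Of 18 glycolysis and hypoxia genes 4 were higher and 1 lower (median -0.01). Hk2, a hexokinase, was at 10.72 with clofibric acid, against 8.77, 9.19 and 9.33 on the controls, and Slc2a3, the neuronal glucose transporter, was 1.58 higher. Of 17 DNA replication genes 6 were lower and 0 higher (median -0.58), and of 14 cell division genes 1 was lower (-0.70). Both medians lay inside the controls. Without vehicle control replicate 1 the DNA replication median was -0.73, below the lowest control median of -0.47, and 7 genes were lower. The cell division median was then -0.79, inside the controls (lowest -0.99), and 3 genes were lower. Of 17 cytoskeleton and contractile genes 5 were lower (median -0.64), led by Palld, undetected and at least 3.87-fold lower, and Tuba1c, 1.84 lower. Oxidative phosphorylation (1 of 26 higher), proteasome (1 higher and 1 lower of 26), ribosomal protein (1 of 19 lower) and histone genes (1 of 7 lower) had medians of -0.16, -0.22, -0.10 and -0.31. Nrf2 targets (1 of 18 lower), p53 targets (1 higher and 1 lower of 14), lysosome genes (2 of 16 lower), apoptosis regulators and metallothioneins (0 counted of 13 and 4) had medians of 0.07, 0.16, 0.12, -0.04 and 0.07, inside the controls. Of 34 lists with at least 3 measured members, 9 lay below and 5 above all 10 controls. The 4 lists added later are not in this count. Among the 9, the ribosomal protein median of -0.098 was close to the median of all genes, -0.101. With median scaling, which moved the median of all genes by -0.24, several small positive medians turned negative, among them those of the endoplasmic reticulum chaperone and the early response and feedback lists, which stayed 0.18 and 0.30 above the median of all genes. With undetected genes at their bound the DNA replication median was -0.36 and the ribosomal protein median 0.00, the second then inside the controls.

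**Figure D4:**
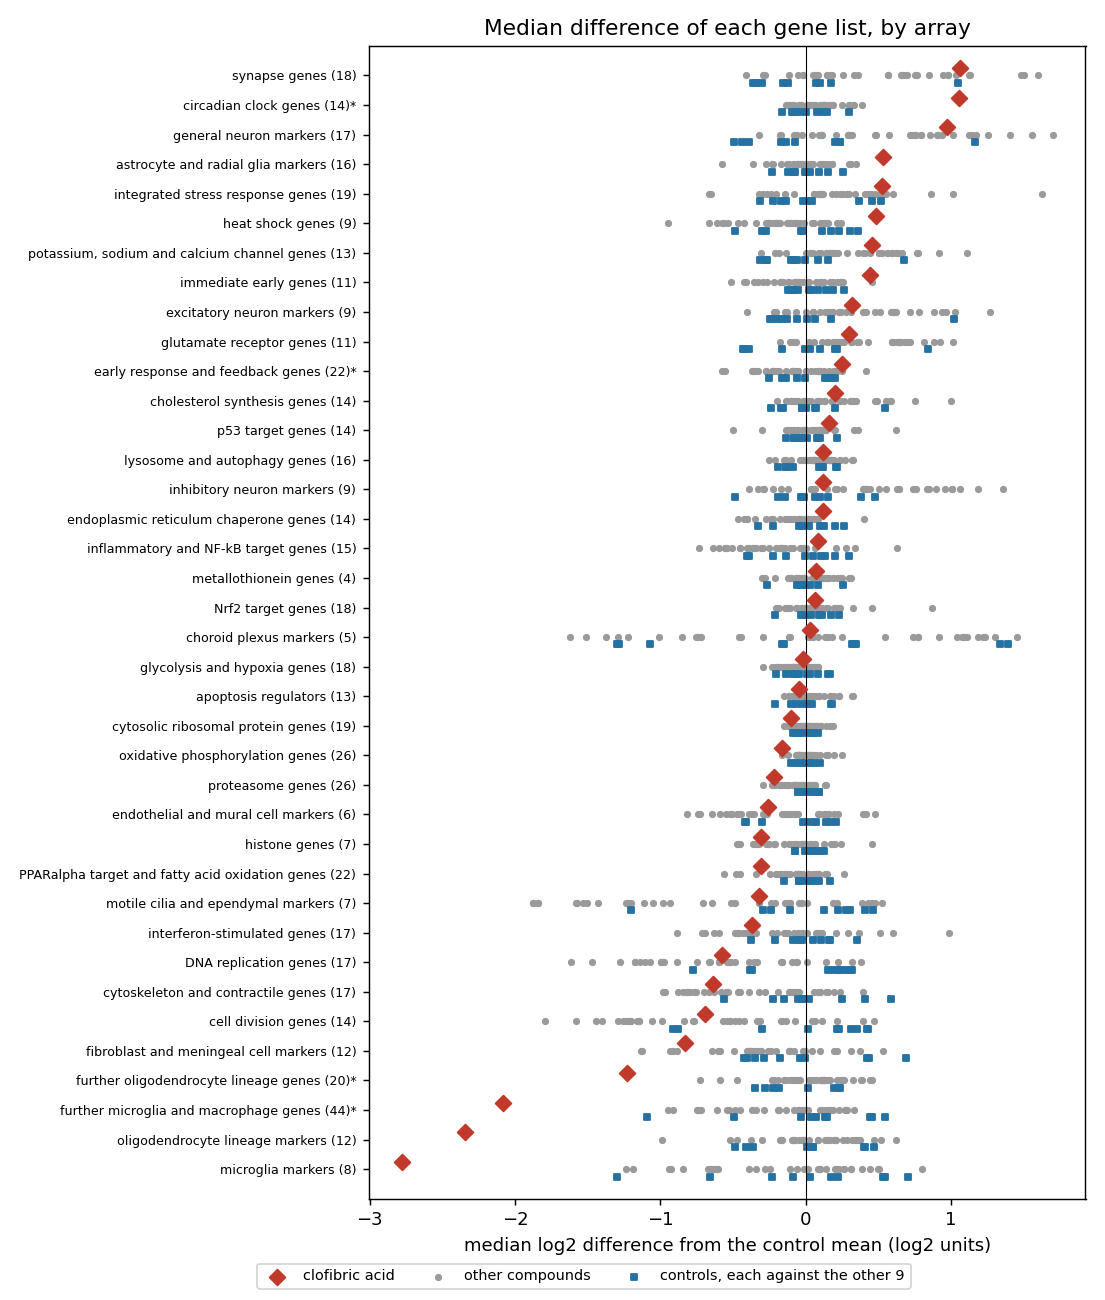
Median log2 difference from the control mean (x axis) of each gene list (rows, measured members in parentheses, an asterisk for lists made after values were seen) for clofibric acid (red diamond), the other compound arrays (grey) and the controls, each against the other 9 (blue). Microglia and oligodendrocyte lists lie at -2.78 and -2.34, left of every other array. Clock genes, listed because they were high in this culture, lie at 1.05, right of every other array.

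Several of the largest differences upward belonged to no list. Zfp248, a zinc finger gene, was at 8.97 with clofibric acid, against 5.34, 5.61 and 5.94 on the controls, a 10.2-fold difference. Rasd2, a small GTPase of the striatum, was 8.65-fold higher and was detected on 2 controls. Spty2d1, a histone chaperone gene, was 8.31-fold higher and was also detected on 2 controls. Cyp26b1, which degrades retinoic acid, was 7.65-fold higher and was detected on 6. Folds over such dim controls are imprecise. Mon1a, a gene of endosome maturation, was at 9.23, against the narrow control range of 6.13 to 6.55. Slc5a6, the vitamin transporter, and Itpkc, an inositol phosphate kinase, were 7.21-fold and 7.13-fold higher. Dyrk1a, a protein kinase, was 8.37-fold higher by its brighter probe and differed by 0.12 log2 units at the other. Uba6, a ubiquitin-activating enzyme, was 7.56-fold higher, but it ranged from 10.54 to 12.64 on the other chip 2 arrays against 12.87 with clofibric acid. Rian, an imprinted long non-coding RNA, was detected on 0 of 10 controls and at least 5.44-fold higher. In all, 15 genes (0.152%) were detected with clofibric acid and on no control, and 382 (3.87%) were undetected with it and detected on all 10 controls.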

How the data were processed

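RNA of 48 mouse neuron cultures was measured on 8 array chips of 6 arrays. The deposited signals are mean bead intensity values per probe, exported by the authors with BeadStudio per the submitters' processing notes, version not given in the sources used here. Per the file headers, each intensity is followed by its detection p-value. The deposited series matrix holds the same intensity minus a single constant on each array (32.3 to 111). Every column was matched to a sample (0 without one).

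Signals of 46632 probes were corrected for background by limma 3.58.1 (nec, normexp from detection p-values, offset of 16) in R 4.3.3 with data.table (version 1.17.8), then normalized by quantiles and log2-transformed. Probes with detection p under 0.01 on at least 6 of 48 arrays were kept (17815), and each of 9869 genes was read from its kept probe of highest mean over all arrays. Of all probes 29976 carry 1 symbol, 10 several and 16646 none, in the old annotation given. The number of arrays limits the precision. Fits without the clofibric acid array used limma's lmFit and eBayes, two-sided, with Benjamini-Hochberg adjustment over the kept probes at 0.05, and the code was tested on simulated data. For a gene undetected in a whole group, "at least" folds set that group to the lowest detected value on each array where it lay under it.

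The culture, the gene lists and the motifs were chosen with earlier results of these data known. The genes named were taken from the 15 largest differences each way, up to 4 counted members of each list and the 5 largest detected on a single side each way. Not all of these are described. Among those left out are Lrig3, 2.68 log2 units higher, and Ccn1, at least 6.39-fold lower. Other list members were named after their values were seen. Alternatives were other scaling, background, starting values, filter, fold and sets of control arrays. Promoters were scanned in Python 3.11.15 and figures drawn with matplotlib 3.10.9.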

Additional observations from a re-analysis of the deposited data

Results flagged for a closer look

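Over the 10 controls, 17 of 158 sets of values had an array far from the other 9, where chance marks about 1 in 20. Vehicle control replicate 1 was the high array for the medians of general neuron markers (1.17), synapse genes (1.05), excitatory neuron markers (1.02), glutamate receptor genes (0.84) and channel genes (0.68). It was also the high array for the log2 levels of Sncb (8.23), Syt1 (10.27), Ina (9.26), Syp (10.21), Syn2 (9.35), Slc17a6 (8.39), Herpud1 (7.86) and Scn2a (6.93). The same control was the low array for the microglial gene Fcrls (8.69) and for Lpl (9.81), which were lower still in the clofibric acid culture. Mock control replicate 2 was low for motile cilia and ependymal markers (-1.20) and for Tekt1 (8.73).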

How the results depend on the processing

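Of the values beyond the controls, the ribosomal protein median, the early response and feedback median (-0.045 with median scaling, the single alternative scaling run for the 4 lists added later) and Tk1 changed sign under an alternative, and sizes depended on scaling and background; of single genes and lists, 2743 values moved by less than the spread of the controls and 315 by more. With median scaling 331 genes were higher and 1366 lower, the median of all genes moved by -0.24, the integrated stress response median was 0.22 and 5 lists lay beyond the controls instead of 14. Without background correction 435 were higher and 349 lower, with an offset of 50 438 and 345, and with a fold of 1.5 log2 units 247 and 212; the highest control count was then 446 without correction and 450 with the offset, against 795. Without the detection filter the microglia median was -1.92. Genes detected on a single side numbered 397, but 629 against mock controls, 131 against the 47 other arrays and 245 against the 8 other ethanol compounds. Against those ethanol compounds the neuron median was 0.26, 6 lists lay outside and Tk1 turned to 0.18; against the 47 arrays 5 lists did. Against vehicle controls the ribosomal protein median turned to 0.076. The ethanol fit called 6938 probes with median scaling, 82 without the filter and 604 with chip as a block. Leaving out each array in turn gave 0 to 3269 there, and for clofibric acid 647 to 711 genes higher, 734 to 806 lower, 397 to 442 detected on a single side, 12 to 20 lists beyond the controls and medians of 0.89 to 1.11 (neurons), -2.42 to -2.28 (oligodendrocyte lineage), -2.92 to -2.68 (microglia) and 0.42 to 0.57 (integrated stress response), and 0 probes for the chip 2 controls. The causes were not tested. No paired analysis was possible because clofibric acid has 1 array.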
